A study of Mus musculus with 57 samples.

Results

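Lungs of *Hoxa5*-/- embryos were compared with lungs of wild-type (wt) embryos at E12.5 (E, embryonic day), the stage at which the lung buds branch. The libraries were chosen by their labels alone and number 8 of the 57 in the series, 4 of each genotype. Genes were followed when their mean TPM (a read level scaled by gene length and then to the same sum in each library) reached 1 in either genotype, which left 17548 of the 56860 genes in the table, and of these 603 reached that level in mutants only and 408 in wt only. The series measured polyA-selected RNA of several embryonic tissues to ask how the loss of *Hoxa5* alters their transcriptomes. Embryos of both genotypes were kept in the 129/Sv background, and each sample was RNA of dissected lung tissue. The mutants carry *Hoxa5*tm1Rob, a null allele present in every tissue, in which a neomycin cassette disrupts the homeobox, so that the remaining exons of the gene were still counted. The study calls the libraries biological replicates, and p-values below measure the spread between these samples.

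*Hoxa5* encodes a homeodomain transcription factor of the lung and tracheal mesenchyme, and its loss is known to disturb airway branching, tracheal cartilage and perinatal breathing. Branching is driven by an exchange between the distal epithelium and the surrounding mesenchyme, in which mesenchymal FGF10 acts on epithelial FGFR2, epithelial SHH restrains *Fgf10* through its receptor PTCH1, and WNT, BMP and retinoic acid signals tune the outgrowth of the tips. The mesenchyme gives rise to smooth muscle around the airways, to vessels and, around the main bronchi and trachea, to cartilage rings made of collagen types II and IX under the control of SOX9.

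The 8 libraries held between 20552280 and 72991481 counted reads, the largest being *Hoxa5*-/- replicate 3. Genes that define embryonic lung were present throughout, with *Nkx2-1*, the transcription factor of lung endoderm, between 168 and 215 TPM and the mesenchymal *Tbx4* between 215 and 268 TPM. *Hoxa5*-/- replicate 1 stood apart from the other libraries. Its heat-shock gene *Hspa1a* was at 657 TPM against 0.519 to 3.82 TPM elsewhere, its erythroid genes summed to 150138 TPM against 20619 to 40737 TPM, and its mitochondrial genes held 0.399% of counts against 1.71 to 2.24%. Some calls, counts of genes without overlap and summed levels are therefore also given without it. Log2 fold changes and list medians at E12.5 use all 8 libraries. *Xist*, transcribed from the inactive X chromosome, was high in 1 wt and 2 mutant libraries, and was used as a covariate in an alternative fit.

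Levels of a gene between libraries are given as normalized CPM (counts scaled to a common library total with TMM factors), in the order of replicates 1 to 4. *Hoxa5* itself (chr6:52178734-52181567, GRCm39) read 139, 121, 142 and 150.1 CPM in wt and 42.0, 33.1, 36.6 and 32.6 CPM in mutants, so the labels and the targeted gene matched in all 8 libraries. In the quasi-likelihood test of edgeR, with p-values adjusted by Benjamini-Hochberg, 14 of the 17548 genes (0.0798%) differed by at least 1.5-fold at an adjusted p under 0.05, and in all 14 the wt and mutant libraries did not overlap. *Hoxa5* and the antisense transcript *Hoxaas2* of the *HoxA* cluster were among them. A further 11 are described below, 7 of them higher in mutants (0.0399% of genes tested) and 4 lower. Over all genes tested the median log2 fold change was 0.00, and 956 genes (5.45%) had no overlap between genotypes, 496 of them higher in mutants (2.83%) and 460 lower (2.62%).

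**Figure D1:**
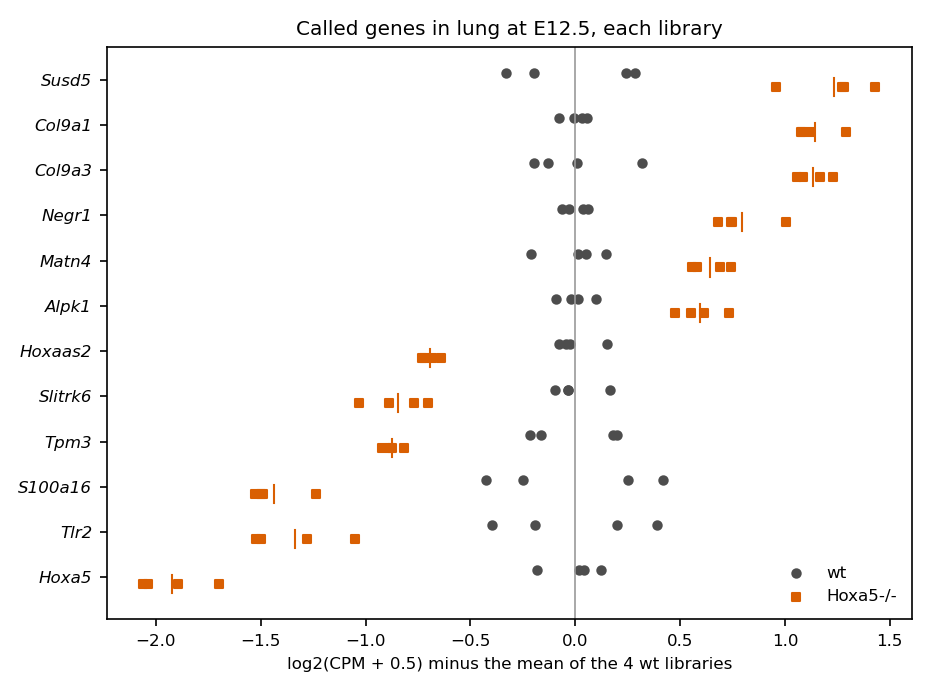
Levels of 12 of the 14 genes called at E12.5, in log2(CPM + 0.5) minus the wt mean of the gene; each point is 1 library and the vertical tick is the mutant mean. The wt and mutant points of each gene do not overlap, and *Gm19248*, whose log2 fold change of 9.10 exceeds the axis, is not drawn.

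Outside *Gm19248*, the rises with the smallest p were in genes of cartilage matrix. *Col9a1*, which encodes a chain of collagen IX, the collagen that decorates type II fibrils of cartilage, read 13.95, 13.7, 13.3 and 12.7 CPM in wt and 28.9, 28.9, 29.7 and 33.5 CPM in mutants. Every mutant library stood above every wt library, with little variation within either genotype. Its log2 fold change was 1.17 (SE 0.08, n = 4 per genotype, edgeR adjusted p = 9.04e-05), a 2.25-fold rise. *Col9a3*, encoding another chain of the same collagen, read 18.7, 13.5, 14.98 and 12.9 CPM in wt against 31.5, 32.1, 35.5 and 34.0 CPM in mutants. Again the genotypes were separate, with a log2 fold change of 1.15 (SE 0.11, edgeR adjusted p = 0.0035). Both calls were kept when any 1 of the 8 libraries was left out, with adjusted p-values up to 0.00148 for *Col9a1* and 0.0354 for *Col9a3*.

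*Matn4*, encoding matrilin 4, an adaptor protein of the extracellular matrix, read 26.5, 22.03, 28.3 and 25.8 CPM in wt and 37.9, 41.6, 38.5 and 43.0 CPM in mutants. The mutant libraries were all higher, and the log2 fold change was 0.65 (SE 0.09, edgeR adjusted p = 0.0261). This call was less firm, since it was kept in 1 of 8 omissions, that of *Hoxa5*-/- replicate 1, and the adjusted p reached 0.124 in the other 7. *Susd5*, a sushi-domain gene, was low, with 2.64, 1.75, 1.55 and 2.55 CPM in wt and 5.76, 4.50, 5.72 and 6.45 CPM in mutants. It rose by a log2 fold change of 1.40 (SE 0.20, edgeR adjusted p = 0.0377), but the call was lost whichever library was left out, with adjusted p-values from 0.0549 to 0.158. *Wwp2*, a ubiquitin ligase gene active in chondrocytes, was at 106, 106, 92.6 and 101 CPM in wt and 173, 138, 142 and 147 CPM in mutants. Its adjusted p was 0.0322 by the same edgeR test, and its log2 fold change of 0.56 was under the 1.5-fold limit (0.58 on this scale).

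A list of 20 genes of airway cartilage, written with earlier results of these data known, was followed next. It includes the called *Col9a1*, *Col9a3* and *Matn4*, and the counts, median and sums of the list below include them. Of the 16 tested, 3 were called higher and none lower (0.0399% of all genes in each direction). An unadjusted p under 0.05 was reached by 10 higher members and by 1 lower, *Hapln1* (8.01% of all genes in either direction). Without overlap, 7 were higher in mutants and none lower, against 2.83% and 2.62% of all genes. Without *Hoxa5*-/- replicate 1 these were 7 higher and 1 lower, against 4.94% and 4.82%. The median log2 fold change was 0.42. Those 16 include 1 gene that reached 1 TPM in mutants only and 1 in wt only. *Col9a2*, the remaining chain of collagen IX, read 38.6, 30.2, 37.5 and 30.9 CPM in wt and 46.2, 47.7, 50.2 and 44.1 CPM in mutants. Its libraries were separate as well, but the log2 fold change of 0.46 (SE 0.09, adjusted p = 0.156) did not pass the test. *Col2a1*, encoding the main collagen of cartilage, had a log2 fold change of 0.38 (SE 0.11, adjusted p = 0.386), with overlapping libraries. *Sox9*, the master regulator of chondrocytes, which the distal lung epithelium also expresses, was at 0.28, and its partners *Sox6* and *Sox5* were at 0.38 and 0.22. None of the 3 *Sox* genes passed the test. *Cnmd*, encoding chondromodulin, had the highest log2 fold change of the list, 1.29 (SE 0.29, adjusted p = 0.240), from 0.385, 0.333, 0.587 and 0.582 CPM in wt and 0.876, 1.37, 0.885 and 1.54 CPM in mutants, which do not overlap. The lowest value of the list was that of *Hapln1*, a link protein of hyaluronan, at -0.44. Summed over the list, levels were 359.9 to 402.5 TPM in wt and 479.7 to 511.7 TPM in mutants, without overlap.

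Genes of mature hyaline cartilage were near 0 at this stage. *Acan*, encoding the proteoglycan aggrecan, averaged 0.226 TPM in wt and 0.614 TPM in mutant lung, and *Matn1* 0.0164 and 0.0408 TPM, while wt trachea at E15.5 averaged 136 and 48.3 TPM. *Comp* and *Snorc* were likewise under 1 TPM in lung of both genotypes. The called members, and *Susd5* outside the list, are much more abundant in trachea. In wt trachea at E15.5 *Col9a1* averaged 314 TPM, *Col9a3* 370.0 TPM, *Matn4* 167 TPM and *Susd5* 86.9 TPM. In wt lung the same genes averaged 9.87, 14.6, 18.55 and 1.94 TPM at E12.5, and 8.91, 30.8, 40.7 and 0.719 TPM at E15.5. Since each sample was bulk tissue, more cells of a type and more RNA per cell cannot be told apart.

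Other genes of the trachea were therefore listed, after the values had been seen, as those with at least 10 TPM in wt trachea at E15.5 and at least 10 times the level of wt lung of that stage. They number 285, of which 153 were tested, 13 of these having reached 1 TPM in mutants only and 2 in wt only. *Col9a1*, *Col9a3* and *Susd5* were the only members called. In 22 members the mutant libraries were all higher and in none all lower, against 2.83% and 2.62% of all genes (28 and 1 without *Hoxa5*-/- replicate 1, against 4.94% and 4.82%), and 115 lay above 0 and 38 below, with a median log2 fold change of 0.22. These counts include the 13 and 2 genes that reached 1 TPM in 1 genotype only, which favours higher values, and were not repeated without those genes. Over the members that reached 1 TPM in both genotypes the median was 0.17. Without the cartilage list, 145 tested genes had 18 members without overlap, all higher, and a median of 0.19 (0.16 over those that reached 1 TPM in both genotypes). After *Susd5*, the smallest p among them belonged to *Shox2*, a homeobox gene of tracheal mesenchyme, at 0.504, 0.222, 0.483 and 0.182 CPM in wt and 1.13, 1.44, 1.57 and 1.40 CPM in mutants (log2 fold change 1.99, SE 0.31, adjusted p = 0.0548). Summed levels of the whole list overlapped, at 1120 to 1755 TPM in wt and 1418 to 2217 TPM in mutants. How much trachea or main bronchus each dissected sample held is not recorded, and its part in the rise of the cartilage genes was not tested.

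At E15.5, 3 days later, the same comparison of 4 wt and 4 mutant lungs called 22 of 17777 genes (0.124%). Of all lung libraries, the paper lists the lowest shares of mapped and assigned reads for E15.5 *Hoxa5*-/- replicate 4. Its summed TPM was low in most lists and not in matrix alone. Its genes of matrix and basement membrane summed to 6912 TPM, against 10178 to 11568 TPM in the other E15.5 lungs. WNT genes summed to 1550 TPM (2146 to 2474 in the others) and proliferation genes to 2631 TPM (3417 to 3948). Cardiac muscle genes went the other way, at 902 TPM (242 to 543). Values at E15.5 include this library except where a library is left out. *Col9a1* then read 13.1, 11.98, 10.7 and 11.03 CPM in wt and 13.1, 12.51, 13.5 and 16.4 CPM in mutants, a log2 fold change of 0.24 (SE 0.11, adjusted p = 0.806). *Col9a3* was at 0.01 (SE 0.09) and *Matn4* at -0.10 (SE 0.14). The mutant level of *Col9a1* at E15.5 thus lay near the wt level of both stages. An interaction term in 1 edgeR fit of both stages tested whether the genotype effect differed, and 5 of 18733 genes (0.0267%) passed. Among them, the effect at E15.5 was lower than at E12.5 by a log2 difference of -0.93 for *Col9a1* (SE 0.13, adjusted p = 0.0208) and of -1.13 for *Col9a3* (SE 0.15, adjusted p = 0.0189). For *Matn4* the difference of -0.75 did not pass (adjusted p = 0.539). These stage differences were kept in 9 of 16 omissions of a library for *Col9a1* and in 10 of 16 for *Col9a3*, with adjusted p-values up to 0.0810 for both. Both were lost without E12.5 wt replicate 3, E12.5 *Hoxa5*-/- replicates 3 or 4, E15.5 wt replicates 1 or 2, or E15.5 *Hoxa5*-/- replicate 2, and that of *Col9a1* also without E12.5 wt replicate 1. Over the cartilage list, the median was 0.14 at E15.5, 1 of 16 tested members was higher without overlap (1.69% of all genes) and none lower, and the summed levels overlapped.

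**Figure D2:**
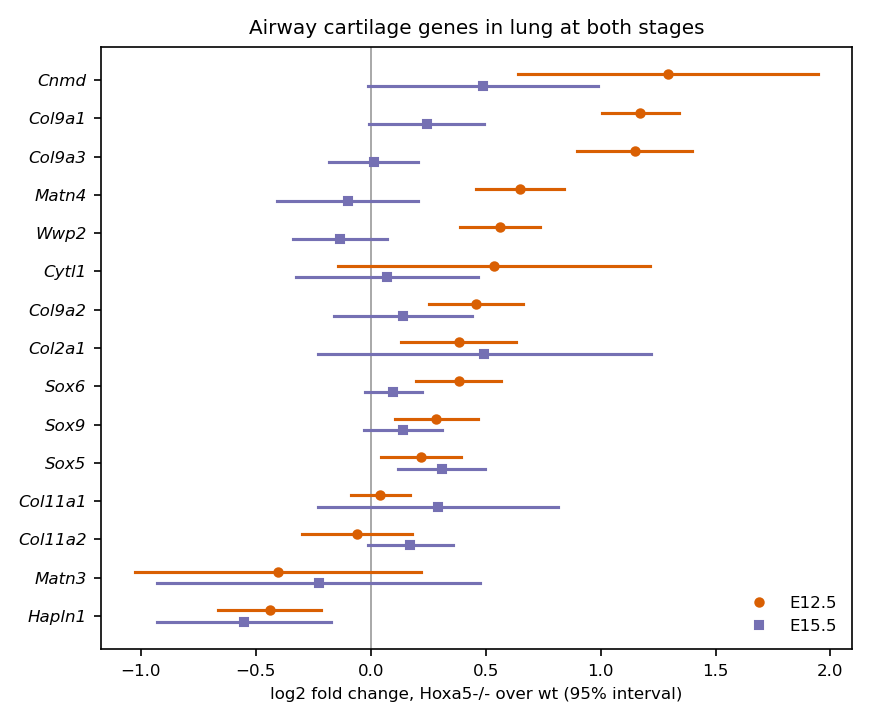
Log2 fold changes of *Hoxa5*-/- over wt lung for the airway cartilage genes tested at both stages, with 95% intervals from edgeR, at E12.5 and at E15.5. *Cnmd*, *Col9a1* and *Col9a3* lie above 1 at E12.5, and at E15.5 they are at 0.49, 0.24 and 0.01.

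The fall with the smallest p outside the *HoxA* cluster was that of *Slitrk6* (chr14:110986012-110992581, GRCm39), which encodes a leucine-rich repeat membrane protein known from the inner ear and neurons. It read 86.2, 82.4, 99.1 and 86.0 CPM in wt and 42.9, 54.0, 47.4 and 51.6 CPM in mutants. No mutant library came near the wt range, and the log2 fold change was -0.85 (SE 0.08, edgeR adjusted p = 0.0035). The call was kept in all 8 omissions, with adjusted p-values up to 0.0294. At E15.5 its levels were 25.1, 24.3, 29.7 and 30.7 CPM in wt and 27.2, 40.6, 29.5 and 40.6 CPM in mutants, which overlap. The stage difference of 1.18 (SE 0.18, adjusted p = 0.0231) passed the interaction test and was kept in 7 of 16 omissions. It was lost without E12.5 wt replicates 1 or 3, E12.5 *Hoxa5*-/- replicates 1, 3 or 4, E15.5 wt replicates 1 or 2, or E15.5 *Hoxa5*-/- replicates 2 or 4, with adjusted p-values up to 0.0907. Per length, the mean level of *Slitrk6* in wt lung was 78.0 TPM at E12.5 and 24.99 TPM at E15.5, and in mutants 43.1 and 29.04 TPM.

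*Rnf152*, encoding a ubiquitin ligase of lysosomes, showed a similar course and also passed the interaction test. It read 6.07, 4.94, 6.38 and 7.27 CPM in wt and 3.67, 3.45, 3.70 and 3.47 CPM in mutants at E12.5, without overlap. The log2 fold change at that stage was -0.78 and not called by edgeR (adjusted p = 0.110), although DESeq2 called it (adjusted p = 0.000607). At E15.5 it was 0.24, and the stage difference was 1.03 (SE 0.15, edgeR adjusted p = 0.0208), kept in 7 of 16 omissions. It was lost in those that cost *Slitrk6* its call except that of E12.5 *Hoxa5*-/- replicate 1, and without E15.5 wt replicate 4, with adjusted p-values up to 0.0884.

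*Negr1*, a cell adhesion gene of the immunoglobulin family known from neurons, rose from 6.19, 5.64, 6.07 and 5.78 CPM in wt to 9.80, 10.3, 10.2 and 12.4 CPM in mutants. The genotypes were separate, and the log2 fold change was 0.85 (SE 0.11, edgeR adjusted p = 0.0181). At E15.5 the levels overlapped, with a log2 fold change of -0.17, and the stage difference was -1.02 (SE 0.16, adjusted p = 0.0462). Both calls were fragile: that at E12.5 was kept in 1 of 8 omissions, that of *Hoxa5*-/- replicate 1, and reached an adjusted p of 0.0986 in the others, and that of the stage difference was kept in 2 of 16, those of E15.5 wt replicate 3 and E12.5 *Hoxa5*-/- replicate 1.

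To show what lies upstream of 2 of these genes, RefSeq transcript starts were used to take the 250 bases before each start, placed on GRCm39 by sequence identity. The letters TAAT or their reverse ATTA, the core that homeodomain proteins bind, are in capitals. *Slitrk6*, one of the called genes that fell, has 3 matches, of which 2 overlap. The first start of *Matn4* has 2, while both starts of *Col9a1* have none. Windows of the other called genes that fell were not taken.
Slitrk6 (chr14:110992582-110992831, minus strand): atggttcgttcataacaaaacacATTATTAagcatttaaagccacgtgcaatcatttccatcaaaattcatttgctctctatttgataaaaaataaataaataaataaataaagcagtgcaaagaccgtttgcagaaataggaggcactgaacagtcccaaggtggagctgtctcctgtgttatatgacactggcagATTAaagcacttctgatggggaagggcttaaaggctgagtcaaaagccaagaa
Matn4 (chr2:164247081-164247330, minus strand): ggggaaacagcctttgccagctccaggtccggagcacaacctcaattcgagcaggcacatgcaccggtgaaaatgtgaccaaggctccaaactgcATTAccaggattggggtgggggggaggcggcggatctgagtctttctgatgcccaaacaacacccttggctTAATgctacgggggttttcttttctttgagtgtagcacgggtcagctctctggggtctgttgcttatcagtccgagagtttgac
Of 32851 promoter windows of this length, 54.9% hold these letters on either strand, so a match in itself sets neither gene apart. The letters ACAAAG and ACAATG, bound by SOX proteins and present in 16.5% and 10.7% of windows, are in none of the 5 windows of *Col9a1*, *Matn4* and *Slitrk6*.

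The genes that carry branching itself were examined next, as a list of 24. None was called by edgeR or by DESeq2, and 4 reached an unadjusted p under 0.05, which is also when the 95% interval leaves out 0 (8.01% of all genes). For 20 of the 24, the whole 95% interval of the log2 fold change lay within the 1.5-fold limits, as it did for 67.2% of all genes tested. The intervals were narrowest for *Rdh10* and widest for *Sox2*. The median of the list was -0.02.

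**Figure D3:**
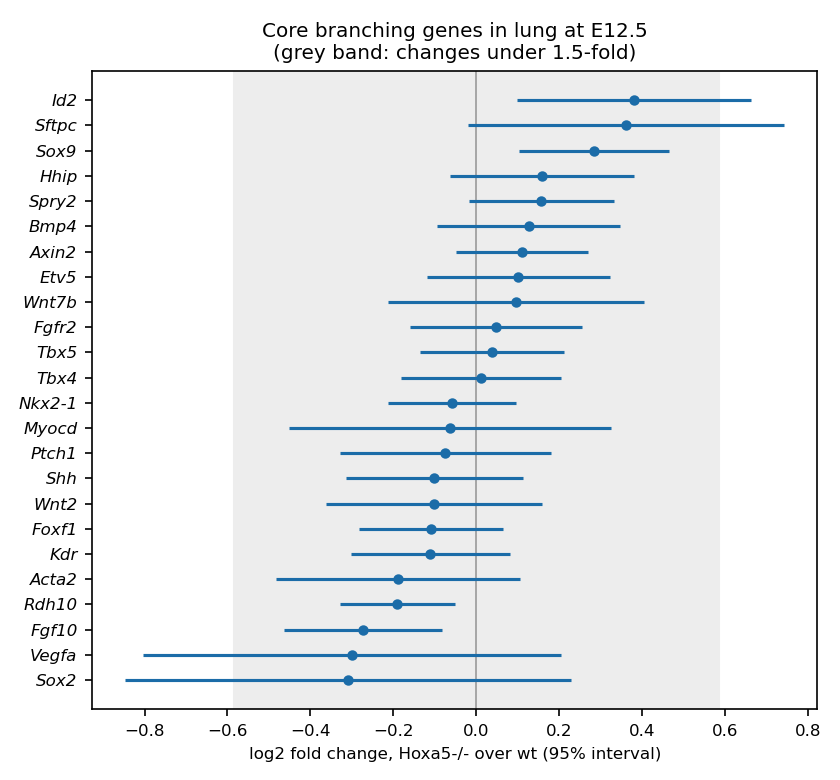
Log2 fold changes of *Hoxa5*-/- over wt lung at E12.5 for 24 genes of branching, epithelium, mesenchyme, muscle and vessels, with 95% intervals from edgeR (4 libraries per genotype). The grey band marks changes under 1.5-fold, and the intervals of *Id2*, *Sox2*, *Sftpc* and *Vegfa* reach outside it.

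Among the FGF genes, *Fgf10*, the mesenchymal ligand that draws out the tips, read 27.05, 27.4, 31.1 and 30.6 CPM in wt and 25.4, 26.01, 21.2 and 23.6 CPM in mutants. The mutant libraries all lay below the wt libraries, but the log2 fold change of -0.27 (95% interval -0.46 to -0.08, edgeR adjusted p = 0.430) did not pass. Its receptor *Fgfr2* was at 0.05 (-0.16 to 0.26). The targets of the receptor, *Etv5* and *Spry2*, were at 0.10 (-0.12 to 0.32) and 0.16 (-0.02 to 0.33), the mutant libraries of *Spry2* being all above wt. Over the whole FGF list, 19 genes tested had a median of 0.08, 1 member without overlap higher and 1 lower (2.83% and 2.62% of all genes), no call by either tool, and 2 members with an unadjusted p under 0.05 (8.01% of all genes). The next smallest p-values belonged to *Dusp6*, a feedback phosphatase, at 0.15 and to the ligand *Fgf9* at 0.27.

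In the hedgehog pathway, the epithelial ligand *Shh* was at -0.10 (-0.31 to 0.11). Its receptor and target *Ptch1* was at -0.07 (-0.33 to 0.18), and the antagonist *Hhip* at 0.16 (-0.06 to 0.38). All 3 intervals include 0 and stay within the 1.5-fold limits. *Cdon*, a co-receptor of SHH, read 62.9, 57.5, 62.7 and 58.6 CPM in wt and 76.3, 71.5, 74.9 and 76.3 CPM in mutants. It was the only one of 14 tested members without overlap (5.45% of all genes), at a log2 fold change of 0.31 (SE 0.05, adjusted p = 0.106 by edgeR and 0.000186 by DESeq2, below the 1.5-fold limit in both). The median of the list was 0.05, and no other member reached an unadjusted p under 0.05.

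Most genes of the WNT and BMP lists lay above 0, and none was called by edgeR. *Wnt2*, a ligand of the mesenchyme, was at -0.10 (-0.36 to 0.16), *Wnt7b*, a ligand of the epithelium, at 0.10 (-0.21 to 0.40), and *Axin2*, the common target, at 0.11 (-0.05 to 0.27). Of 36 tested WNT genes, 26 lay above 0, 4 had all mutant libraries above wt and none below, against 2.83% and 2.62% of all genes, and the median was 0.11. Without *Hoxa5*-/- replicate 1 these counts were 4 above and 2 below (4.94% and 4.82% of all genes). An unadjusted p under 0.05 was reached by 9 of the WNT genes, all higher, against 8.01% of all genes in either direction. The receptor *Fzd1* read 116, 115, 113 and 128 CPM in wt and 130.4, 142, 166 and 151 CPM in mutants (log2 fold change 0.32, adjusted p = 0.257). The antagonist *Dkk1*, at 0.681, 0.750, 0.414 and 0.291 CPM in wt and 1.59, 1.079, 5.21 and 0.963 CPM in mutants, was called by DESeq2 but not by edgeR (log2 fold change 2.10, SE 0.57, adjusted p = 0.329), and its highest library is *Hoxa5*-/- replicate 3. The feedback inhibitor *Nkd1* was at 0.25.

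*Bmp4*, a ligand of the distal tips, was at 0.13 (-0.09 to 0.35), and *Id2*, a target of BMP signalling and marker of tip progenitors, at 0.38 (0.10 to 0.66, edgeR adjusted p = 0.477). Of 33 tested genes of BMP and TGF-beta signalling, 29 lay above 0, 3 were higher without overlap and none lower (2.83% and 2.62% of all genes), and 7 had an unadjusted p under 0.05, all higher (8.01% of all genes in either direction). Without *Hoxa5*-/- replicate 1, 5 were higher without overlap and none lower (4.94% and 4.82%). The median was 0.14, against 0.00 over all genes. *Bmp6* read 1.69, 1.5, 1.69 and 1.85 CPM in wt and 3.46, 3.63, 3.96 and 2.36 CPM in mutants, and its log2 fold change of 1.01 (SE 0.19) was called by DESeq2 alone (edgeR adjusted p = 0.111). *Smad9*, encoding a signal transducer of BMP receptors, and *Chrdl1*, encoding a BMP antagonist, were each at 0.51. Mean levels over the list, as log2(TPM + 1), did not overlap for either the WNT or the BMP genes and were higher in mutants, whereas the summed TPM of both lists overlapped. Without *Hoxa5*-/- replicate 1 the sum of the WNT genes was higher in the mutants, at 2746 to 2922 TPM against 2573 to 2723 TPM in wt, while that of the BMP genes still overlapped.

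In the retinoic acid pathway, *Rdh10*, which makes the precursor of the ligand, was lower in every mutant library, at 57.5, 58.9, 58.1 and 64.2 CPM in wt and 53.3, 49.9, 50.1 and 55.9 CPM in mutants (log2 fold change -0.19, -0.33 to -0.05, edgeR adjusted p = 0.462). *Crabp2*, a carrier of retinoic acid, was at -0.62 and called lower by DESeq2 alone, and the receptor *Rarb* at 0.30, both with overlapping libraries. The 14 tested members had a median of 0.01. Of 16 tested NOTCH genes, 2 were higher without overlap, the target *Heyl* at 0.34 and the ligand *Jag1* at 0.42, and none lower (2.83% and 2.62% of all genes). Without *Hoxa5*-/- replicate 1, 3 were higher without overlap and 1 lower (4.94% and 4.82%). The receptor *Notch2* was at 0.23, no member was called by either tool, 4 had an unadjusted p under 0.05, and the median was -0.06.

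**Figure D4:**
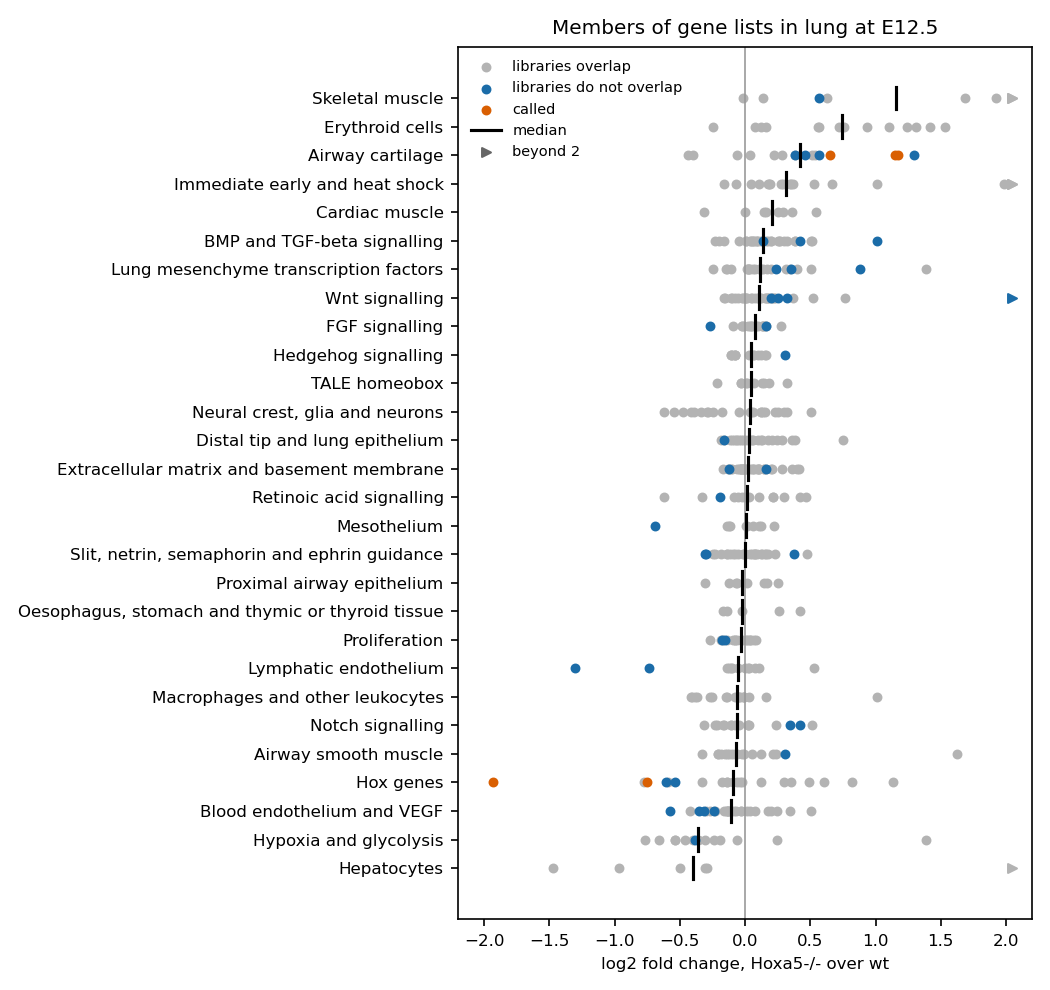
Log2 fold changes of *Hoxa5*-/- over wt lung at E12.5 for the tested members of 28 gene lists, ordered by median. Orange points were called, blue points had no overlap between wt and mutant libraries, black bars are medians, triangles are values beyond 2 or -2, and the grey line is the median of all genes; called members above 0 occur in the airway cartilage list and those below 0 in the *Hox* list.

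Epithelial genes gave no call. *Nkx2-1* was at -0.06 (-0.21 to 0.10) and *Sox9*, high in the distal tips, at 0.28 (0.10 to 0.46, edgeR adjusted p = 0.359). *Sox2*, the factor of the proximal airway, was at -0.31 (-0.85 to 0.23), an interval too wide to place it within 1.5-fold. It read 4.30 CPM in *Hoxa5*-/- replicate 1, 9.34 to 10.8 CPM in the other mutant libraries and 9.60 to 13.4 CPM in wt. *Sftpc*, encoding surfactant protein C of distal progenitors, was at 0.36 (-0.02 to 0.74), and *Sftpb*, encoding surfactant protein B, at 0.75 (SE 0.24, adjusted p = 0.450) with overlapping libraries. The 26 tested genes of the distal tip had a median of 0.03 and the 8 of the proximal airway a median of -0.02.

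Among mesenchymal factors, *Tbx4* and *Tbx5*, which specify the lung mesenchyme, were at 0.01 (-0.18 to 0.21) and 0.04 (-0.13 to 0.21), and *Foxf1*, a target of SHH, at -0.11 (-0.28 to 0.07). Of 24 tested transcription factors of this list, 20 lay above 0, 3 were higher without overlap and none lower (2.83% and 2.62% of all genes), none was called by edgeR, and the median was 0.11. The counts without overlap were the same without *Hoxa5*-/- replicate 1 (4.94% and 4.82%), and 6 had an unadjusted p under 0.05, all higher (8.01% of all genes in either direction). *Prrx1*, a homeobox gene of limb and airway mesenchyme, read 32.7, 25.3, 22.01 and 17.4 CPM in wt and 35.1, 37.7, 50.9 and 56.1 CPM in mutants. Both genotypes varied widely, and the log2 fold change of 0.88 (SE 0.20, adjusted p = 0.228) was called by DESeq2 alone. *Foxf2* was at 0.35 and *Nfib* at 0.24, each with all mutant libraries above wt.

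The genes of airway smooth muscle, which wraps the branching tubes, had a median of -0.07 over 18 tested members. *Acta2*, encoding smooth muscle actin, was at -0.19 (-0.48 to 0.11) and *Myocd*, the coactivator of the lineage, at -0.06 (-0.45 to 0.32). The integrin gene *Itga8* was the only member without overlap (5.45% of all genes), at 0.31, and *Des* was at -0.21. *Hspb1*, a small heat-shock gene in that list, had a log2 fold change of 1.62 (adjusted p = 0.658) with overlapping libraries. Of 36 tested genes of matrix and basement membrane, 1 was higher and 1 lower without overlap (2.83% and 2.62% of all genes), and the median was 0.02. Without *Hoxa5*-/- replicate 1 these counts were 4 and 2 (4.94% and 4.82% of all genes). *Lama2*, *Tnc* and *Vcan*, of basement membrane and interstitial matrix, were at 0.28, 0.41 and 0.16, and none passed the test. Of 29 tested guidance genes, 1 was higher and 2 lower without overlap (2.83% and 2.62% of all genes). *Plxna2*, a semaphorin receptor, was the higher one at 0.37. *Sema3f* and *Ntn4*, encoding a semaphorin and a netrin, were the lower ones at -0.31 and -0.30. *Epha3* was at 0.48, and the median of the guidance genes was 0.00.

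Endothelial genes lay mostly below 0. *Vegfa*, the epithelial ligand of vessel growth, was at -0.30 (-0.80 to 0.21). It read 299 CPM in *Hoxa5*-/- replicate 1 and 165 to 181 CPM in the other mutant libraries. Its receptor *Kdr* was at -0.11 (-0.30 to 0.08), and 21 of 29 tested genes of blood endothelium lay below 0, with a median of -0.11. In 4 of them all mutant libraries were lower and in none higher, against 2.62% and 2.83% of all genes, and without *Hoxa5*-/- replicate 1 the count was 7 (4.82%). None was called by either tool, and 4 had an unadjusted p under 0.05, all lower. *Cldn5*, of endothelial junctions, was at -0.35, *Plvap*, of fenestrae, at -0.32, and the apelin receptor *Aplnr* at -0.58. At E15.5 the median of this list was -0.35, 17 of 29 members were lower without overlap (2.69% of all genes), and the summed level was lower in every mutant library. That sum was 1507 TPM in E15.5 *Hoxa5*-/- replicate 4, whose sums were low in most lists. It was 2391 to 2590 TPM in the other mutants and 2756 to 3218 TPM in wt.

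*Lyve1*, a hyaluronan receptor of lymphatic endothelium and some macrophages, read 19.7, 15.1, 29.9 and 29.4 CPM in wt and 7.30, 13.7, 7.36 and 9.97 CPM in mutants. The genotypes were separate by a narrow margin, between wt replicate 2 and *Hoxa5*-/- replicate 2, and the log2 fold change of -1.30 (SE 0.26) was called by DESeq2 (adjusted p = 5.85e-05) but not by edgeR (adjusted p = 0.141). At E15.5 it was at 63.5, 76.5, 98.0 and 65.9 CPM in wt and 18.6, 22.96, 18.004 and 29.01 CPM in mutants, and was called by edgeR (log2 fold change -1.79, SE 0.18, adjusted p = 0.0088). *Stab2*, a scavenger receptor of hyaluronan, had the same pattern, with -0.74 (SE 0.18, adjusted p = 0.261) at E12.5 and -1.57 (SE 0.18, adjusted p = 0.0126) at E15.5. Neither stage difference passed the test (adjusted p = 0.964 and 0.881). The other 11 of the 13 tested lymphatic genes overlapped between genotypes at E12.5, among them *Nr2f2* at 0.11, and the list's median was -0.06.

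Markers of other cells that the dissection could hold gave no call by edgeR, and an unadjusted p under 0.05 in 4 members of the skeletal muscle list and at most 1 of each other list. Leukocyte genes summed to 301.1 to 313.8 TPM in wt, to 165 TPM in *Hoxa5*-/- replicate 1 and to 278 to 330 TPM in the other mutant libraries. Erythroid genes had a median log2 fold change of 0.74, and their sum overlapped at 20619 to 27753 TPM in the other 3 mutants. Skeletal muscle genes had a median of 1.15 over 8 tested, 4 of which reached 1 TPM in mutants only, and of 0.35 over those that reached it in both genotypes, and the sums overlapped at 24.9 to 36.1 TPM in wt and 27.4 to 66.4 TPM in mutants. Genes of mesothelium, neural crest, heart and oesophagus, stomach, thymus or thyroid had medians of 0.01, 0.04, 0.21 and -0.03, hepatocyte genes had -0.40 over 6 tested, and the summed levels of each of these lists overlapped. The mesothelial keratin *Krt19* was at -0.69 and called by DESeq2 alone. Proliferation genes had a median of -0.03 over 21 tested, with *Aurka* and *Aurkb*, mitotic kinases, lower without overlap at -0.18 and -0.15 (2.62% of all genes) and none higher (2.83%). Hypoxia and glycolysis genes had a median of -0.36 over 15 tested, none called and none with an unadjusted p under 0.05, and 1 of them, *Car9*, was lower without overlap (2.62% of all genes). Without *Hoxa5*-/- replicate 1, 6 of the 15 were lower without overlap and none higher (4.82% and 4.94% of all genes), and their summed level was 1521 to 2084 TPM in mutants against 2111 to 4029 TPM in wt, with no overlap. Genes of immediate early and heat-shock response had a median of 0.32, led by *Hspa1a* and *Hspa1b*, whose rise is that of *Hoxa5*-/- replicate 1.

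Across all 30 lists, the summed level did not overlap between genotypes in 2: airway cartilage, higher in mutants, and *Hox* genes, lower. Without *Hoxa5*-/- replicate 1, 4 lists did not overlap, these and WNT signalling, higher in mutants, and hypoxia and glycolysis, lower. The *Hox* list includes the targeted gene *Hoxa5*, at 233 to 304 TPM in wt and 67.2 to 74.9 TPM in mutants. In wt replicate 2 the list summed to 1153 TPM with *Hoxa5* at 233 TPM, and in *Hoxa5*-/- replicate 2 to 1037 TPM with *Hoxa5* at 67.4 TPM. With *Hoxa5* taken out, the sums of the genotypes overlap, also without *Hoxa5*-/- replicate 1. The separation of this list therefore rests on the targeted gene. The mean level of the *Hox* list as log2(TPM + 1) overlapped between genotypes. TALE genes, encoding cofactors of HOX proteins, had a median of 0.04 over 10 tested and no call. In the *HoxA* cluster, *Hoxaas2* was lower by -0.72 (SE 0.08, edgeR adjusted p = 0.00911). It was called in 6 of 8 omissions of a library, being lost without *Hoxa5*-/- replicates 2 or 4 (adjusted p up to 0.0636). *Hoxa4* was at -0.61 (edgeR adjusted p = 0.0503). The counting is not stated to use strand, so reads of *Hoxaas2* and of genes on the opposite strand cannot be told apart.

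Among the 14 called genes, 5 lie on chromosome 3: *Tlr2*, *Tpm3*, *S100a16*, *Alpk1* and *Negr1*. On this chromosome 94 of 904 tested genes (10.4%) had no overlap, against 5.45% of all genes, followed by chromosome 6, which carries *Hoxa5*, with 73 of 862 (8.47%), while the other chromosomes had between 3.57 and 7.64%. *Tpm3* and *S100a16* are 0.465 Mb apart. *Tpm3*, encoding a tropomyosin, read 329, 247, 256 and 325 CPM in wt and 156, 151, 155 and 163 CPM in mutants (log2 fold change -0.89, SE 0.10, edgeR adjusted p = 0.00651). *S100a16*, encoding a calcium-binding protein, read 27.6, 15.2, 17.2 and 24.5 CPM in wt and 6.92, 6.80, 8.43 and 6.98 CPM in mutants (-1.53, SE 0.19, adjusted p = 0.0141). *Tlr2*, encoding a receptor for bacterial lipoproteins, read 7.20, 3.97, 4.66 and 6.25 CPM in wt and 1.59, 1.55, 2.34 and 1.93 CPM in mutants (-1.55, SE 0.22, adjusted p = 0.0377). In all 3 genes wt replicates 2 and 3 lay between the other wt libraries and the mutants.

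The same libraries differed in *Tpm3-rs7* (chr14:113552040-113554186, GRCm39), a processed copy of *Tpm3* with 2089 of 2102 aligned bases (99.38%) identical to a *Tpm3* transcript. In CPM of all counts, without the TMM scaling, *Tpm3-rs7* was at 2.09, 69.4, 71.8 and 1.39 in wt and at 122, 138, 136 and 151 in mutants. It was near 0 in wt replicates 1 and 4 and highest in the 4 mutants. *Tpm3* and its copy added up to 315 to 329 CPM in wt and 273 to 315 CPM in mutants, and with their counts summed the log2 fold change of *Tpm3* was -0.15 (adjusted p = 0.493) and no longer a call. Reads of the parent and of the copy can be split between them by the counting, so the value of each alone is uncertain. At E15.5 *Tpm3-rs7* was at 1.67, 2.21, 145 and 142 CPM in wt and at 73.6, 142, 146 and 60.4 CPM in mutants, so that there the level differed within both genotypes. Whether sequence differences between the embryos, on chromosome 3 or at the copy, have a part in these calls was not tested.

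**Figure D5:**
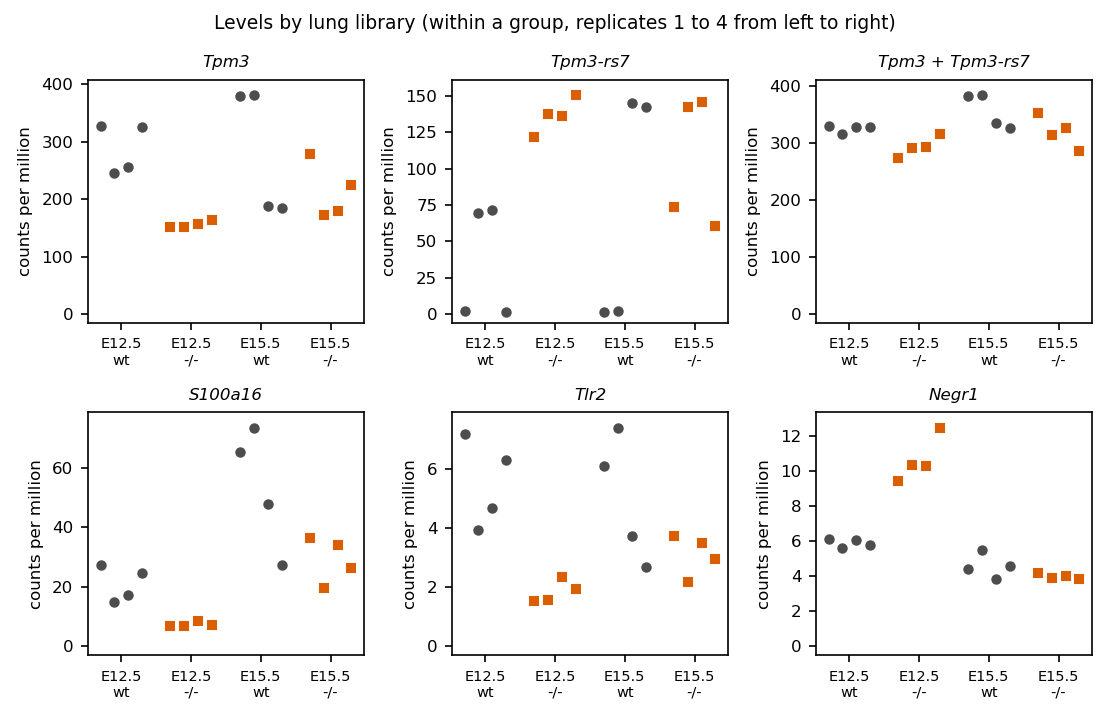
CPM of all counts in each lung library for *Tpm3*, its copy *Tpm3-rs7*, their sum, *S100a16*, *Tlr2* and *Negr1*, at E12.5 and E15.5. Libraries high in *Tpm3-rs7* were low in *Tpm3*, while the sums at E12.5 lay between 273 and 329 in all 8 libraries.

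Since *Tpm3-rs7* moved with these genes, it was used as a covariate in a fit of both stages, chosen after the data had been seen. In that fit 7 genes were called at E12.5: *Hoxa5*, *Gm19248*, *Col9a1*, *Col9a3*, *Slitrk6*, *Negr1* and *Susd5*. *S100a16* was at -0.88 (adjusted p = 0.40), *Tlr2* at -0.83 (0.447), *Alpk1* at 0.57 (0.377) and *Matn4* at 0.53 (0.447). *Tpm3* was at -0.18 (0.555) and *Hoxaas2* at -0.60 (0.165). At E12.5 every mutant library was higher in *Tpm3-rs7* than every wt library, so this fit can hardly separate the covariate from genotype. A lost call therefore need not mean a smaller effect, and the SE of *Alpk1* went from 0.08 to 0.15. *Col9a1* was at 1.29 and *Slitrk6* at -1.02, so both were at least as large as without the covariate. *Tpm3-rs7* itself was not called (log2 fold change 1.91, SE 0.90, edgeR adjusted p = 0.632). *Alpk1*, encoding a kinase that senses a bacterial sugar, read 13.03, 13.9, 12.1 and 12.8 CPM in wt and 21.9, 19.2, 18.2 and 20.03 CPM in mutants (0.61, SE 0.08, adjusted p = 0.0314), with wt libraries alike. Leaving out any 1 library ended its call, by the test or by the fold limit, with adjusted p-values from 0.0345 to 0.154. *Tlr2* kept its call in 1 omission, that of wt replicate 2, with adjusted p-values up to 0.17, *S100a16* in 5, being lost without wt replicate 4 or *Hoxa5*-/- replicates 2 or 4 (up to 0.106), and *Tpm3* in 7, being lost without *Hoxa5*-/- replicate 2 (0.0525).

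The largest rise was that of *Gm19248* on chromosome 7, an annotated copy of *Tmsb10*, the gene of the actin-binding thymosin beta 10. It held 3, 2, 2 and 0 counts in wt libraries and 891, 866, 2645 and 513 counts in mutants. Levels of *Tmsb10* were 674, 623, 655 and 635 CPM in wt and 583, 472, 522 and 611 CPM in mutants, a log2 fold change of -0.24 (adjusted p = 0.473). The annotated span of the copy and the stretch of the *Tmsb10* transcript it matches are shown, with the 8 of 110 bases at which they differ in capitals.
Gm19248 (chr7:46616996-46617105, plus strand): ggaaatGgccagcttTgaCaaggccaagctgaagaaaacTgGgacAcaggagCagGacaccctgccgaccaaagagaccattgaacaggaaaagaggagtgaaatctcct
Tmsb10 (gene at chr6:72934330-72935731, minus strand): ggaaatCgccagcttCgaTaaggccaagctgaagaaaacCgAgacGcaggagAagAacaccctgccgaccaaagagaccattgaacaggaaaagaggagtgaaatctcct
Counted from 1 at the 5′ end of this stretch, with the *Tmsb10* base first, the differences are C7G, C16T, T19C, C40T, A42G, G46A, A53C and A56G. All lie in the first part, and the last 54 bases are identical. All but 1 of the 110 bases of *Tmsb10* are coding. The copy took between 3.88 and 6.45% of the reads of the pair in mutants and at most 0.0132% in wt libraries, and with the counts of the pair summed *Tmsb10* was at -0.16 and not called. *Gm19248* was also at most 0.280 CPM in wt libraries of lung at E15.5, trachea and diaphragm, and at 11.8 CPM or more in all mutant libraries of these tissues, so its level followed the allele in each.

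None of the tested genes nearest to a called gene outside the *Hox* clusters was itself called. On chromosome 2, *Matn4* has *Slpi* and *Rbpjl* beside it, at 0.37 and 0.27, and *Col9a3* has *Ogfr* and *Tcfl5*, at -0.06 and -0.14. *Slitrk5*, the nearest tested gene after *Slitrk6*, was at -0.01, while *Tifa*, beside *Alpk1*, was at 0.45 (adjusted p = 0.363) with all mutant libraries above wt. *S100a6*, beside *S100a16*, was at -0.49 (adjusted p = 0.538) with all mutant libraries below wt. Within 5 Mb of a called gene, DESeq2 called *Cebpb* (-0.71) near *Matn4*, *Col25a1* (0.68) near *Alpk1*, *St6galnac5* (-0.95) near *Negr1*, *Nell1* (0.95) near *Gm19248* and, near *S100a16*, *Bcan* (2.12), *4930481B07Rik* (-1.89), *Tmod4* (1.09) and *Crabp2* (-0.62). *Bcan* and *Crabp2* are also within that distance of *Tlr2* and *Tpm3*, as *4930481B07Rik* is of *Tpm3*.

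DESeq2 called 81 genes (0.462%), 46 of them higher (0.262%) and 35 lower (0.199%), and all 14 genes called by edgeR were among them. Of the other 67, 60 had no overlap between genotypes. Besides *Dkk1*, *Shox2* and *Bcan*, which encodes the proteoglycan brevican, the largest rises among these were in *Arhgef37* (1.55), *Gm8146* (1.49), *Ebf2* (1.43), a factor of mesenchymal and fat cell precursors, *Vsnl1* (1.18), *Gdf5* (1.17), a BMP-family ligand of joints and cartilage, *Iigp1* (1.10) and *Tmod4* (1.09). The largest falls after *4930481B07Rik* and *Lyve1* were in *Sypl2* (-1.26), *Scn7a* (-1.24), *St6galnac5* (-0.95), *Rai2* (-0.92), *Gm56053* (-0.86), *Dgkk* (-0.82), *Rsad1* (-0.80) and *Adamdec1* (-0.79). *4930481B07Rik* read 6.99, 3.78, 3.52 and 6.58 CPM in wt and 0.876, 1.55, 1.77 and 1.30 CPM in mutants (edgeR adjusted p = 0.0501), and its wt replicates 2 and 3 were again the lower ones.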

How the data were processed

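Reads had been trimmed (Trim Galore 0.6.5), aligned to GRCm39 (STAR 2.7.9a) and assigned to genes (featureCounts 2.0.3) by the authors, on an Ensembl annotation curated for *Hox* genes. The deposited counts are whole numbers without normalization, and from them the authors made the deposited TPM. The members and gene lists were chosen with earlier results of these data known. Named are *Hoxa5*, called genes, 24 branching genes, the up to 3 members with the smallest p of each other list, the largest DESeq2-only changes without overlap, neighbours of called genes and genes passing the stage interaction.

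Genotypes were compared with edgeR 4.0.16 (TMM, quasi-likelihood test, Benjamini-Hochberg adjustment) in R 4.3.3. A mean TPM of 1 in either genotype was required, and a call needed a fold change of 1.5 and an adjusted p under 0.05. SEs are the log2 fold change over the root of F. Differences between stages were tested as an interaction. Plotted CPM used a prior count of 0.5. The fits were tested on simulated data. Alternatives were DESeq2 1.42.0, its size factors in edgeR, a minimum of 10 counts in 4 libraries, no minimum, no fold limit, the replicate number as a block, both stages in 1 fit, a covariate for *Xist*, and omission of each library. Summed copies, *Tpm3-rs7* as a covariate, counts and lists without *Hoxa5*-/- replicate 1 and the trachea list came later, once the data were known. The 8 libraries held 20552280 to 72991481 counts. Promoters (RefSeq, GRCm38.p6) were placed on GRCm39 by exact match with Biopython 1.88. Other tissues were used only where named. A called gene is not reported here.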

Additional observations from a re-analysis of the deposited data

Results flagged for a closer look

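In 134 groups of 4 libraries, 1 library lay far from the other 3 by Dixon's criterion in 14, where chance gives about 1 in 20. *Hoxa5*-/- replicate 1 was that library in 6: erythroid genes summed to 150138 TPM (the others 20619 to 27753), immediate early and heat-shock genes to 4276 TPM (1695 to 1835), proliferation genes to 3230 TPM (3953 to 4072) and proximal airway genes to 162 TPM (250.4 to 264), while *Vegfa* was at 299 CPM (165 to 181) and *Spry2* at 24.8 CPM (21.6 to 21.8). *Hoxa5*-/- replicate 3 stood out for *S100a16* at 8.43 CPM (6.80 to 6.98) and for BMP and TGF-beta genes at 2783 TPM (2445 to 2491). In wt replicate 2, WNT genes summed to 2573 TPM (2698 to 2723), NOTCH genes to 494 TPM (556 to 563), matrix genes to 4560 TPM (5534 to 5680.1) and lymphatic genes to 382 TPM (447 to 459.8). In wt replicate 1, leukocyte genes summed to 314 TPM (301.1 to 301.4) and hepatocyte genes to 71.1 TPM (14.03 to 18.4).

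The genotype effect differed between E15.5 and E12.5 in 5 genes by edgeR's interaction test, with log2 differences of -0.93 for *Col9a1*, -1.13 for *Col9a3*, -1.02 for *Negr1*, 1.03 for *Rnf152* and 1.18 for *Slitrk6*. In 4 of them the E12.5 comparison was itself a call, and *Rnf152* was called there by DESeq2 alone.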

How the results depend on the processing

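The number of genes called at E12.5 was 14 in the reported test, 81 by DESeq2, 32 without a minimum level (of 35039 genes), 25 with both stages in 1 fit, 7 with *Tpm3-rs7* as a covariate, and 5 to 14 when a library was left out, 5 to 9 for every library but *Hoxa5*-/- replicate 1, whose omission left 14. The other alternatives gave 11 to 19. The replicate number as a block gave 4 calls. Same-numbered libraries correlated at -0.17 to 0.01, and the labels do not say whether they share a litter or batch. At E15.5 the counts were 22, 83 by DESeq2, 104 with the replicate block, where same-numbered libraries correlated at -0.10 to 0.47, and 5 to 37 without a library, the highest without *Hoxa5*-/- replicate 3. Stage differences numbered 5, 18 by DESeq2, 0 by edgeR with the replicate block (1428 at an unadjusted p under 0.05) and 0 to 7 without a library, with 0 without E12.5 *Hoxa5*-/- replicates 3 or 4, E12.5 wt replicate 3, E15.5 *Hoxa5*-/- replicate 2 or E15.5 wt replicates 1 or 2. Genes without overlap numbered 956, and 1712 without *Hoxa5*-/- replicate 1; lists without overlap numbered 2, and 4 without that replicate. Over the alternatives, the log2 fold changes of the 14 called genes did not change sign, and the call was kept in 175 values and lost in 76. The 24 branching genes gave no call in any alternative, and 4 of their values, all with the *Tpm3-rs7* covariate, moved by more than the replicate spread, while 428 did not. List medians changed sign for 3 of 30 lists on log2(TPM + 1). Genes under 3 CPM, such as *Susd5*, *Dkk1* and *Shox2* in wt libraries, rest on few counts.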
